A study of Mus musculus with 11 samples.

Results

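The comparison described here is that of hematopoietic stem cells (HSCs) from mice given all-trans retinoic acid before polyI:C with HSCs from mice given polyI:C without it. HSCs are rare marrow cells from which all blood cells descend. All-trans retinoic acid (ATRA) is the active form of vitamin A, and polyI:C (pIC) is a synthetic RNA duplex that is sensed like a virus and sets off type I interferon. Samples were taken by title: 3 arrays of the ATRA-then-pIC group (RApIC) and 2 of the pIC group, 5 of the 11 arrays of the series. The other 6 arrays, 3 of mice given PBS as a control and 3 of mice given ATRA alone, served as the resting reference. The series title places the question in the exit of HSCs from dormancy and its control by vitamin A, so the comparison asks how ATRA alters the expression profile of HSCs that also meet pIC. The sources used here do not give the strain, sex and age of the mice, the sorting gate, the doses or the injection times. They do not say either whether replicates came from separate mice, so p-values reflect the spread between samples alone, and that may be technical.

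Retinoic acid enters the nucleus and binds the retinoic acid receptors (RARs), which sit with RXR partners on response elements in target genes. Among the genes switched on is Rarb, itself one of the receptors. Others limit the signal, such as the Cyp26 enzymes, which break retinoic acid down, and Dhrs3, which turns retinaldehyde back into retinol. Interferon acts on dormant HSCs in another way: it drives them into the cell cycle while switching on antiviral genes.

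Total RNA was hybridised to Affymetrix arrays, and the values are log2 intensities, so that a difference of 1 is a doubling of signal. Each of 22180 genes was represented by 1 probe set. The array medians ran from 6.19 to 6.28. Kit and Hlf, both expressed by HSCs, lay between 12.34 and 12.37 and between 10.58 and 10.78 on the PBS arrays, whereas Mpo, a granulocyte gene, lay between 6.25 and 6.69. With few arrays per group, their number limits the precision of every value. Differences below are RApIC minus pIC, with the standard error (SE) after ±, estimated by limma with all 11 arrays in 1 model. Benjamini-Hochberg adjustment of limma's p-values was over all genes. A difference is in many cases, though not all, followed by the value without RApIC replicate 2.

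RApIC replicate 2 stood apart from the other RApIC arrays. The leading principal component took up 56% of the variance, and on it the pIC arrays scored 35.0 and 37.8, RApIC replicates 1 and 3 scored 35.8 and 23.3, and RApIC replicate 2 scored -4.53, on the side of the PBS arrays (-22.9 to -15.2). Its mean correlation was 0.991 with the PBS arrays and 0.985 with the pIC arrays, whereas RApIC replicate 1 gave 0.979 and 0.994 and RApIC replicate 3 gave 0.986 and 0.994. Dhrs3, the retinoid enzyme, was at 11.12 on RApIC replicate 2, above both other RApIC arrays. Its interferon genes lay between the PBS and the pIC levels, as given below.

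No gene passed the threshold of an adjusted p below 0.05 in RApIC versus pIC, with all arrays (0 of 22180, 0%) or without RApIC replicate 2 (0 of 22180, 0%). The lowest adjusted p was 0.176 with all arrays and 0.239 without that array. Weighting each array by its spread called 112 genes with all arrays, 61 higher and 51 lower, and 0 without RApIC replicate 2. At an unadjusted p below 0.05 there were 2242 genes with all arrays, 791 higher (3.57%) and 1451 lower (6.54%) in RApIC. There were 1718 without RApIC replicate 2, of which 639 were higher (2.88%) and 1079 lower (4.86%). Lower genes made up 64.7% of these with all arrays and 62.8% without the array, and after cyclic loess scaling 55.4% and 52.8%. Genes whose RApIC and pIC arrays did not overlap numbered 2161 higher (9.74%) and 3870 lower (17.4%) with all arrays. With RApIC replicate 2 left out, and 2 arrays a side, they numbered 3163 (14.3%) and 5348 (24.1%). For the genes described below, no difference between RApIC and pIC passed the unweighted test in these fits, and member counts are to be read against these shares. For scale, pIC alone gave 1984 higher (8.94%) and 1276 lower (5.75%) genes against PBS at an adjusted p below 0.05. That comparison shares the pIC arrays with the present one, so its values are only set beside it.

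The sequences below show the retinoic acid response element in the promoters of Rarb and Cyp26a1, since the receptor gene and the enzyme gene carry it and gave different values on these arrays. A DR5 element is a direct repeat of the receptors' core motif, AGGTCA or its variants AGTTCA, then GGGTCA, and finally GGTTCA, with 5 bases between, and a DR2 has 2 bases between. Both were searched on both strands of RefSeq promoter windows (GRCm38.p6) from 250 bases before to 50 after each gene's start, and the element is in capitals.
Rarb promoter, chr14:16575491-16575551, minus strand: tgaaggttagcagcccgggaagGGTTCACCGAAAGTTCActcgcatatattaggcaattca
Cyp26a1 promoter, chr19:37697754-37697807, plus strand, element on the opposite strand: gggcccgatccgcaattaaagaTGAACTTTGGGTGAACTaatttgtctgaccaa
DR5 was found in 32 of 32851 windows (0.0974%) and DR2 in 88 (0.268%). Of the 33 genes of the retinoic acid response list, 25 had a window, and Rarb and Cyp26a1 were the 2 with a DR5. None of the 25 had a DR2. Among the genes leading the comparison, described further below, 13 of 15 higher and 12 of 16 lower ones had a window, and neither element was found in these. A match is a string of letters and not a measured site, and elements outside the windows were not searched.

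Several retinoid genes had higher values in RApIC than in pIC arrays, although none passed the test. Dhrs3 was at 9.83 and 9.94 on the pIC arrays against 10.74, 11.12 and 10.74 on the RApIC arrays. Every RApIC array lay above both pIC arrays, by 0.98 ± 0.18 (1.98-fold, adjusted p = 0.218, limma). The value was 0.86 ± 0.18 without RApIC replicate 2 (adjusted p = 0.287). In resting cells Dhrs3 rose by 2.06 ± 0.16 with ATRA (adjusted p = 0.00149, limma), the only gene called in ATRA versus PBS (0.00451% of genes). A model without RApIC replicate 2, which changes the shared estimate of spread, called 26 genes there, 15 higher and 11 lower. The Dhrs3 difference under pIC minus the one at rest was -1.08 ± 0.24, which did not pass the interaction test (adjusted p = 0.702, and 0.538 without RApIC replicate 2). Dhrs3 also rose with pIC alone, by 0.73 (adjusted p = 0.0208).

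Rarb, whose promoter element is shown above, was at 5.50 and 5.98 on the pIC arrays against 6.21, 7.27 and 6.74 on the RApIC arrays. The arrays did not overlap, and the difference was 1.0 ± 0.28 (adjusted p = 0.299), or 0.74 ± 0.24 without RApIC replicate 2 (0.484). The gene fell by 0.94 with pIC alone (adjusted p = 0.0464), so that the RApIC arrays lay around the PBS values of 6.43 to 6.86. Cyp26b1, a retinoic acid-degrading enzyme, was at 7.09 and 6.83 on the pIC arrays against 6.87, 8.11 and 7.97 on the RApIC arrays. Its groups overlapped because RApIC replicate 1 lay between the pIC arrays. The difference was 0.69 ± 0.36, or 0.46 ± 0.36 without RApIC replicate 2. Cyp26a1, with the second element, was at 4.70 and 4.88 against 5.06, 4.73 and 4.92, a difference of 0.11 ± 0.11, or 0.19 ± 0.11 without RApIC replicate 2. It was as low on ATRA arrays as on PBS arrays (4.73 to 4.89 and 4.61 to 4.84).

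Tgm2, a transglutaminase induced by retinoids in many cells, was at 10.60 and 10.47 on the pIC arrays against 10.89, 10.73 and 10.67 on the RApIC arrays, 0.23 ± 0.11 higher. The receptors Rara and Rarg gave -0.07 and -0.05, the retinol-binding protein receptor Stra6 gave 0.04, and the binding protein Crabp2 gave 0.15. Ccr9, a chemokine receptor, and Itgb7, an integrin subunit, are induced by retinoic acid in T cells as gut-homing molecules. Ccr9 was at 4.33 and 4.89 on the pIC arrays against 5.15, 4.88 and 5.29 on the RApIC arrays, all low values, and the groups overlapped. It gave 0.50 ± 0.18, and 0.61 ± 0.18 without RApIC replicate 2, beside 0.10 ± 0.16 in ATRA versus PBS. Itgb7 was at 8.13 and 8.18 on the pIC arrays against 8.67, 7.39 and 8.51 on the RApIC arrays. Its value of 0.03 ± 0.30 became 0.43 ± 0.14 without RApIC replicate 2, which lay at the PBS level.

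Over the list of 30 measured retinoic acid response genes, the median difference was 0.07, against -0.02 over all genes. The values were 0.08 and -0.03 without RApIC replicate 2. With all arrays, 6 of the 30 had non-overlapping higher arrays and 2 lower, and 6 were higher and 1 lower at an unadjusted p below 0.05. Without RApIC replicate 2, 11 of the 30 had non-overlapping higher arrays and 2 lower, and 4 were higher and 1 lower at that p. Non-overlapping higher arrays were found in 9.74% of all genes with all arrays and in 14.3% without RApIC replicate 2. The 33 measured genes of retinoid synthesis, transport and receptors gave a median of 0.01, both with and without the array.

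**Figure D1:**
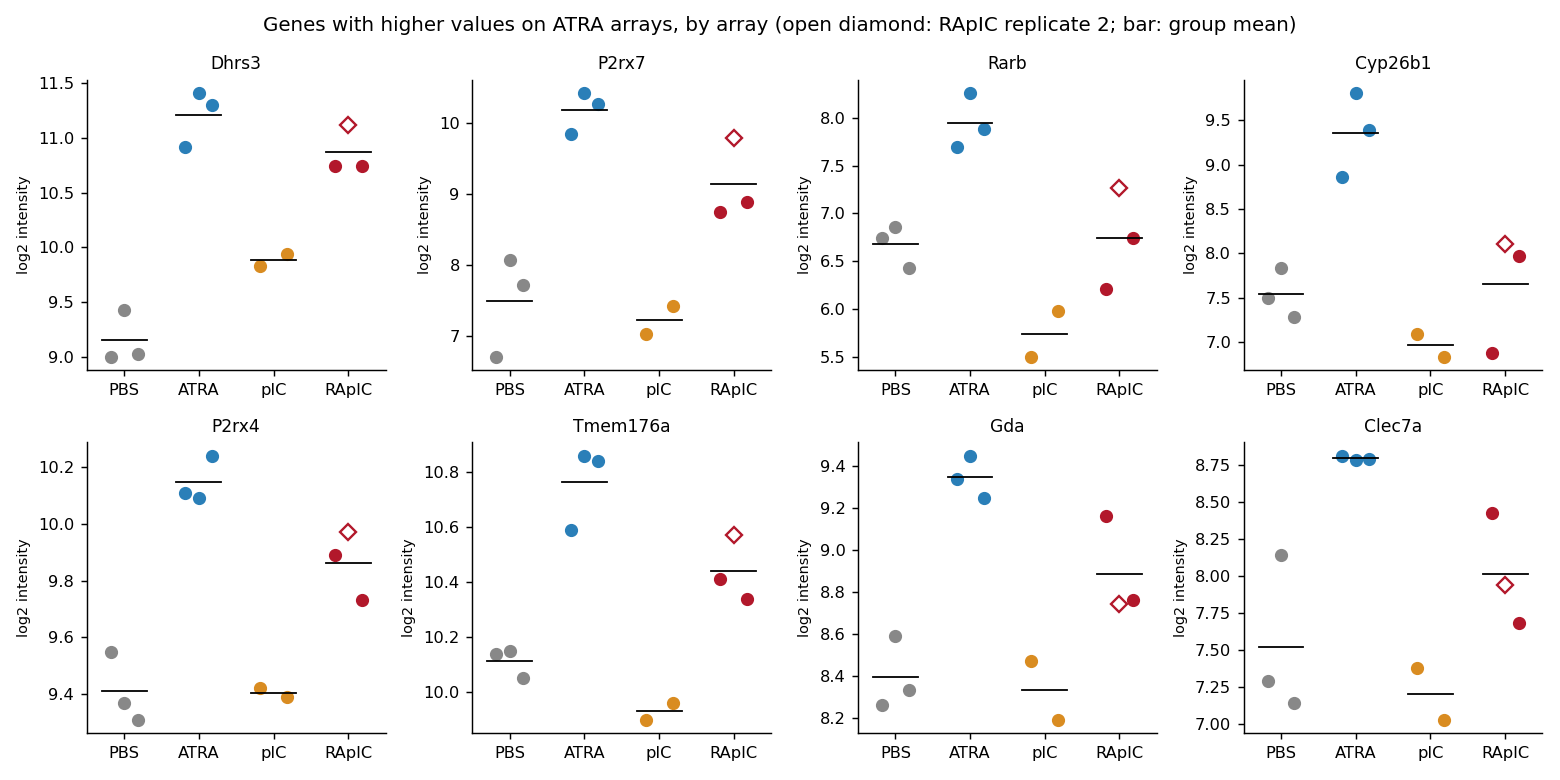
Log2 intensity (vertical axes) of 8 genes on each of the 11 arrays, by group, with a bar at the group mean and RApIC replicate 2 as an open diamond. Dhrs3 lies at 9.83 and 9.94 on the pIC arrays and at 10.74 or above on the RApIC arrays, and P2rx7 at 7.03 and 7.42 against 8.74 or above.

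Genes that led ATRA versus PBS in resting cells were then read in the pIC background. The difference at rest uses no pIC or RApIC array. The p that ranked the genes does, because the model of all arrays shares its estimate of spread. The choice is therefore not independent of the pIC background. Ranking on that p favours genes with little spread within pIC and RApIC, which may itself raise the counts of non-overlapping arrays. This list was made after values had been seen, so it is given as counts with no test. The 30 genes with the lowest p among those higher on all ATRA than on all PBS arrays had a median difference of 0.79 at rest and of 0.23 in RApIC versus pIC (0.21 without RApIC replicate 2). Of these 30, 15 had RApIC arrays that were all above the pIC arrays and 1 had them all below. The 30 genes leading in the other direction had a median of -0.56 at rest and of -0.18 under pIC (-0.19 without the array), with 17 all below and 1 all above. The counts without RApIC replicate 2 were 16 above and 2 below for the first 30, and 2 above and 19 below for the second. The shares over all genes are those given above.

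P2rx7 and P2rx4 stood near the top of that list. Both encode ion channels opened by extracellular ATP. P2rx7 was at 7.03 and 7.42 on the pIC arrays against 8.74, 9.79 and 8.89 on the RApIC arrays. All RApIC arrays lay above all pIC arrays, by 1.92 ± 0.39 (3.77-fold, adjusted p = 0.25), or 1.59 ± 0.37 without RApIC replicate 2 (3.01-fold, adjusted p = 0.355). At rest the difference was 2.68 ± 0.35 (adjusted p = 0.0534, or 0.0166 without RApIC replicate 2 in the model). P2rx4 was at 9.42 and 9.39 on the pIC arrays against 9.89, 9.97 and 9.73 on the RApIC arrays, 0.46 ± 0.10 higher, beside 0.74 at rest.

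Tmem176a and Tmem176b, a pair of membrane proteins, gave 0.51 ± 0.10 and 0.27 ± 0.08 under pIC and 0.65 and 0.50 at rest. Gda, a guanine deaminase, was at 8.47 and 8.19 on the pIC arrays against 9.16, 8.74 and 8.76 on the RApIC arrays. Its difference of 0.56 ± 0.15 stood beside 0.95 at rest. Clec7a, the receptor for fungal beta-glucan, gave 0.81 ± 0.28 under pIC and 1.27 at rest. Pbld1 was at 6.07 and 5.46 against 6.75, 6.90 and 6.50, a difference of 0.95 ± 0.18, and had fallen by 1.07 with pIC alone (adjusted p = 0.00535).

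Other genes of that list showed no such difference under pIC. Stx1a, a syntaxin of vesicle fusion, gave 0.94 at rest and 0.10 ± 0.14 under pIC. Vldlr, a lipoprotein receptor, was at 7.44 and 7.19 on the pIC arrays against 7.24, 7.53 and 7.19 on the RApIC arrays, a difference of 0.01 ± 0.14, or -0.10 ± 0.13 without RApIC replicate 2. It had risen by 0.91 with pIC alone (adjusted p = 0.00343), to about the level of the ATRA arrays (7.19 to 7.40). Mid1, a ubiquitin ligase on microtubules, went the other way: it was at 9.36 and 8.99 on the pIC arrays against 9.57, 9.99 and 9.94 on the RApIC arrays, 0.66 ± 0.22 higher, beside -1.32 in ATRA versus PBS. Pf4, a platelet chemokine, gave -0.97 with ATRA at rest and 0.11 ± 0.14 under pIC. None of the 22180 genes passed the interaction test, with all arrays (0%, lowest adjusted p 0.395) or without RApIC replicate 2 (0%, lowest 0.471). At an unadjusted p below 0.05 there were 1390 (6.27%) and 1368 (6.17%) genes. These counts do not show that ATRA acted alike in both backgrounds.

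The genes with the lowest p in RApIC versus pIC were chosen on that contrast, so their values are a description, and the pIC versus PBS values beside them rest on the same pIC arrays. Klf12, a transcriptional repressor of the Krüppel family, was at 5.0 and 4.77 on the pIC arrays against 6.33, 6.56 and 6.0 on the RApIC arrays. The RApIC arrays lay 1.41 ± 0.21 above the pIC arrays (2.65-fold, adjusted p = 0.176), or 1.27 ± 0.21 without RApIC replicate 2 (2.42-fold, adjusted p = 0.239). The PBS arrays were at 7.50 to 8.17, with pIC the gene fell by 2.86 (adjusted p = 0.00019), and ATRA at rest gave 0.02.

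Lncpint, a long non-coding RNA, was at 7.0 and 6.88 on the pIC arrays against 7.98, 8.42 and 7.85 on the RApIC arrays. The groups did not overlap, and the difference was 1.14 ± 0.16, or 0.97 ± 0.13 without RApIC replicate 2. Emb, the membrane glycoprotein embigin, was at 8.54 and 8.32 against 9.03, 9.20 and 9.07, a difference of 0.67 ± 0.10, or 0.62 ± 0.10 without RApIC replicate 2. A second probe set of Emb gave -0.02, so the probe sets of this gene disagree. Malat1, an abundant nuclear RNA, was at 11.77 and 11.64 against 12.29, 12.46 and 12.13, a difference of 0.59 ± 0.10, and its second probe set gave 0.34. Glul, glutamine synthetase, gave 0.51 ± 0.09, with 0.19 in its second probe set.

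The others among the 10 leading higher values were Olfr1512 (0.98 ± 0.13), an olfactory receptor gene, Gm20199 (0.70 ± 0.11), 4931406H21Rik (0.96 ± 0.16) and Tbrg3 (0.80 ± 0.14). In all 4, the pIC arrays lay below every PBS array and the RApIC arrays lay above the pIC arrays. Each of the 4 had fallen with pIC alone, with adjusted p-values of 0.00343, 0.000565, 0.00485 and 0.00444. Of the 10 leading higher genes without RApIC replicate 2, 5 were also among the 10 of all arrays: Emb, Gm20199, Klf12, Lncpint and Olfr1512.

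Mir342, which encodes a microRNA precursor within the gene Evl, was set apart on the RApIC arrays. It was at 5.33 and 5.42 on the pIC arrays, at 5.34 to 5.89 on the PBS arrays and at 5.07 to 5.81 on the ATRA arrays, but at 6.54, 7.16 and 6.63 on the RApIC arrays. The RApIC arrays were above all 8 other arrays, with a difference from pIC of 1.41 ± 0.24 (adjusted p = 0.218), or 1.21 ± 0.23 without RApIC replicate 2 (adjusted p = 0.253). The host gene Evl was at 7.86 and 8.07 on the pIC arrays against 8.25, 8.07 and 8.45 on the RApIC arrays, a difference of 0.29 ± 0.12. The probe set reads RNA of the precursor's gene, not the mature microRNA. The 2 mature forms are given from RefSeq, with the seed (bases 2 to 8), by which targets are recognised, in capitals.
mmu-miR-342-5p, chr12:108658638-108658659, plus strand (GRCm38.p6): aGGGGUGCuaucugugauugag
mmu-miR-342-3p, chr12:108658680-108658702, plus strand (GRCm38.p6): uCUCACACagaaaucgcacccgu

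Among the leading lower values, Pnp2, a purine nucleoside phosphorylase, was at 6.36 and 6.27 on the pIC arrays against 5.68, 5.15 and 5.35 on the RApIC arrays. All RApIC arrays lay below both pIC arrays, with a difference of -0.92 ± 0.15 (adjusted p = 0.218), or -0.79 ± 0.14 without RApIC replicate 2. Tfrc, the transferrin receptor that brings iron into dividing cells and erythroid cells, was at 8.71 and 8.51 against 7.98, 7.62 and 7.84. Its value of -0.80 ± 0.14 became -0.70 ± 0.14 without RApIC replicate 2. The PBS arrays lay between 7.46 and 7.87, and pIC alone raised Tfrc by 0.89 (adjusted p = 0.004).

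Glrx, a glutaredoxin that reduces disulfides, was at 6.48 and 6.54 on the pIC arrays against 6.01, 6.12 and 6.06 on the RApIC arrays (-0.45 ± 0.08). Mylpf, a myosin light chain, gave -0.75 ± 0.12, and Mrpl22, a mitochondrial ribosomal protein, gave -0.50 ± 0.09. Mgme1, a nuclease that maintains mitochondrial DNA, gave -0.44 ± 0.08, and the peroxisomal membrane protein Pxmp2 gave -0.47 ± 0.09. In each of these 5 genes pIC alone had raised the level, with adjusted p-values of 0.00664, 0.0273, 0.00245, 0.0351 and 0.0162. Fzd7, a Wnt receptor, differed from this: it was at 7.42 and 7.55 on the pIC arrays, close to PBS (7.18 to 7.46), and at 6.95, 6.85 and 7.01 on the RApIC arrays, a difference of -0.54 ± 0.10. Zfp771 likewise was at 8.18 on both pIC arrays and at 7.56, 7.05 and 7.38 on the RApIC arrays, -0.85 ± 0.16. Tbc1d10b, a Rab GTPase-activating protein, gave -0.57 ± 0.10. Without RApIC replicate 2, 4 of the 10 leading lower genes were also among the 10 of all arrays: Glrx, Mylpf, Pnp2 and Pxmp2. Zbtb43 led the lower values without that array (-0.60 ± 0.09).

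**Figure D2:**
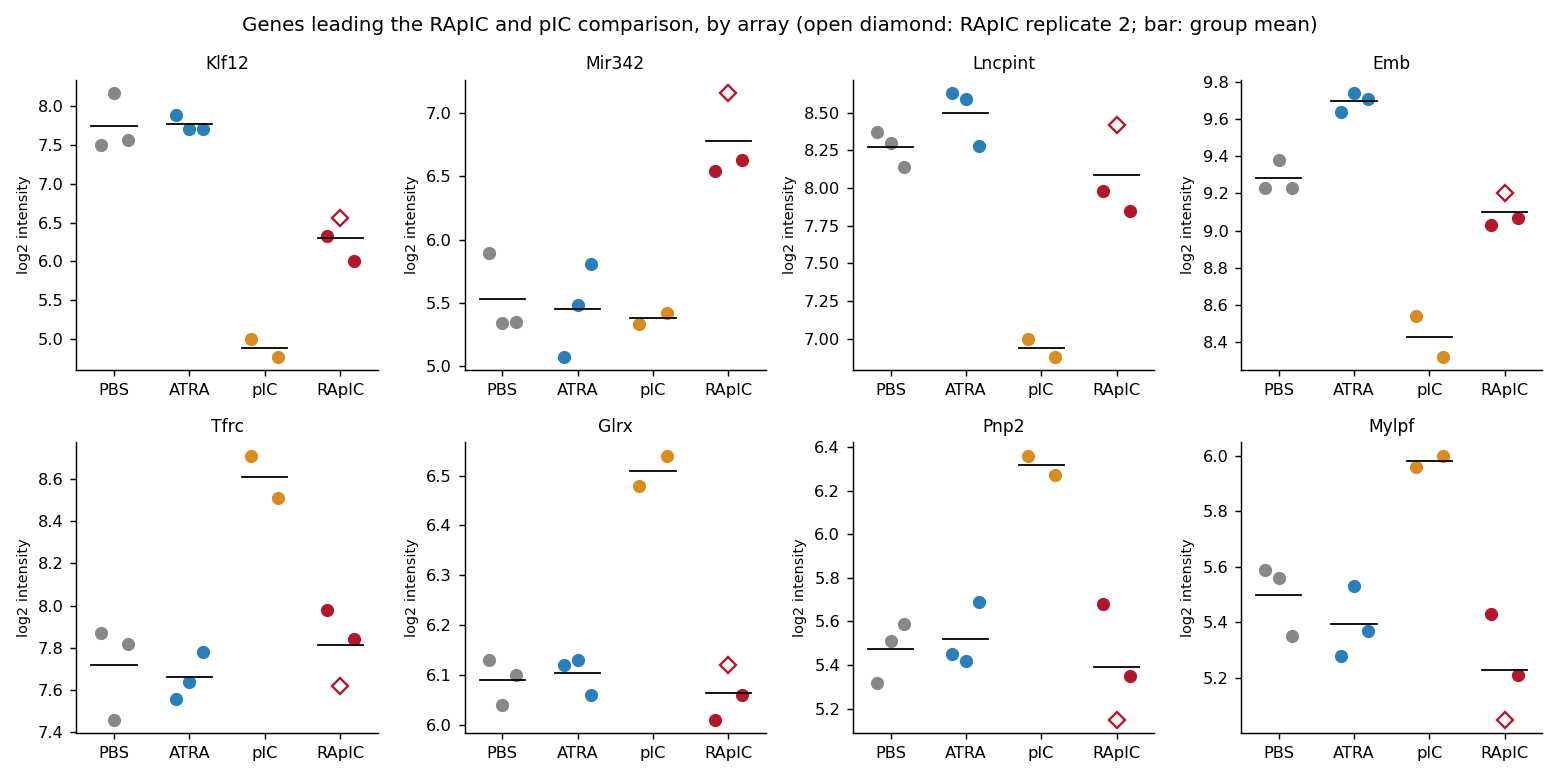
Log2 intensity (vertical axes) of 4 genes with leading higher and 4 with leading lower values in RApIC, on each of the 11 arrays, with a bar at the group mean and RApIC replicate 2 as an open diamond. In Klf12 the RApIC arrays (6.0 to 6.56) lie between the pIC arrays (4.77 and 5.0) and the PBS arrays (7.50 to 8.17), and in Mir342 they lie above all other arrays.

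Cell-cycle genes were lower in RApIC than in pIC arrays, with or without RApIC replicate 2. The 41 measured genes of G2/M and mitosis had a median of -0.23, or -0.19 without the array. Of the 41, 26 had non-overlapping lower arrays and 0 higher. Leaving out RApIC replicate 2, 31 of 41 were lower and 0 higher, against 24.1% and 14.3% of all genes, and 11 were lower at an unadjusted p below 0.05. By array, the list's median level relative to PBS was 0.46 and 0.44 on the pIC arrays against 0.24, 0.14 and 0.25 on the RApIC arrays. The same list had a median of -0.38 in ATRA versus PBS, where 34 of 41 had non-overlapping lower arrays, against 6.08% of all genes.

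Aurka, a mitotic kinase, was at 8.91 and 9.10 on the pIC arrays against 8.66, 8.17 and 8.48 on the RApIC arrays. Its value of -0.57 ± 0.13 (adjusted p = 0.259) became -0.43 ± 0.11 without RApIC replicate 2 (0.38). Ect2, which activates the contractile ring at cell division, was at 9.04 and 9.20 against 8.75, 8.83 and 8.72, -0.35 ± 0.09. Cdk1, the kinase that starts mitosis, was at 10.64 and 10.63 against 10.21, 10.45 and 10.34, -0.31 ± 0.11. Without RApIC replicate 2, Ect2 gave -0.38 ± 0.10 and Cdk1 -0.36 ± 0.12. Kif22, a chromosome kinesin, and Dlgap5, a spindle protein, are not in this list and were picked from the genes leading ATRA versus PBS. They gave -0.37 ± 0.11 and -0.50 ± 0.12, or -0.29 ± 0.10 and -0.38 ± 0.10 without RApIC replicate 2. Kif2c and Prc1, which also led ATRA versus PBS and are in the G2/M list, gave -0.03 ± 0.10 and -0.11 ± 0.15. Mki67, the gene of the proliferation marker Ki-67, likewise showed little difference. It was at 11.25 and 11.45 on the pIC arrays against 11.25, 11.41 and 11.32 on the RApIC arrays (-0.02 ± 0.09, or -0.07 ± 0.10 without RApIC replicate 2), beside a value of -0.48 in ATRA versus PBS.

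The 41 measured genes of DNA replication and G1/S gave a median of -0.16, or -0.17 without RApIC replicate 2. The arrays were 0.33 and 0.39 above PBS for pIC and 0.21 for each RApIC array. Without that array 33 of 41 had non-overlapping lower arrays and 0 higher, and 7 were lower at an unadjusted p below 0.05. Rfc3, a subunit of the clamp loader, was at 8.86 and 8.84 against 8.49, 8.40 and 8.53 (-0.39 ± 0.09). Cdc45 and Mcm10, which act at the replication fork, gave -0.45 ± 0.11 and -0.47 ± 0.12, and the licensing factor Cdt1 gave -0.35 ± 0.10. Without RApIC replicate 2, Cdc45 gave -0.39 ± 0.12 and Cdt1 -0.26 ± 0.08. Cdk6, whose protein sets how fast HSCs leave dormancy, was at 11.79 and 11.77 against 11.81, 11.52 and 11.72, and its pIC rise of 0.57 (adjusted p = 0.00543) stood beside -0.10 ± 0.10 in RApIC versus pIC, or -0.02 ± 0.09 without RApIC replicate 2. Ccnd1 (cyclin D1) gave -0.16 ± 0.18, or -0.30 ± 0.18 without RApIC replicate 2. Myc gave -0.01 ± 0.09 and Mycn -0.03 ± 0.10, the latter -0.10 ± 0.09 without it. The inhibitors Cdkn1c (p57) and Cdkn1a (p21) gave 0.35 ± 0.17 and -0.52 ± 0.37, or 0.20 ± 0.15 and -0.08 ± 0.25 without RApIC replicate 2. The 33 measured genes of cell-cycle inhibitors and quiescence had a median of 0.02, or -0.01 without that array.

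Respiration and ribosome biogenesis genes also had lower values in RApIC arrays. The 40 measured genes of oxidative phosphorylation had a median of -0.16, or -0.11 without RApIC replicate 2, where 31 of 40 had non-overlapping lower arrays and 0 higher. At an unadjusted p below 0.05 (limma), 10 of the 40 were lower with all arrays but only 2 without RApIC replicate 2. The shares over all genes were 6.54% and 4.86%. The level of this list relative to PBS was 0.20 on both pIC arrays and 0.08, 0.00 and 0.09 on the RApIC arrays. Ndufa9, a subunit of complex I, was at 11.31 and 11.27 against 10.97, 10.83 and 11.02 (-0.35 ± 0.08). The 41 measured Myc target and ribosome biogenesis genes had a median of -0.16, or -0.09 without the array, where 24 of 41 had lower and 3 higher non-overlapping arrays. With all arrays 9 were lower and 1 higher at an unadjusted p below 0.05, against 3 lower and 0 higher without RApIC replicate 2. Nop2, a nucleolar RNA methyltransferase, gave -0.41 ± 0.14, or -0.28 ± 0.12 without it. The 19 glycolysis genes (-0.04) and 34 cytosolic ribosomal protein genes (-0.00) had medians near that of all genes. The 22 sterol and fatty acid synthesis genes gave 0.03, the 24 heat shock and unfolded protein response genes -0.13, and the 28 lysosome and autophagy genes -0.12. Without RApIC replicate 2 these were -0.05, -0.05 and -0.04. Bak1, an apoptosis effector, gave -0.43 ± 0.13, or -0.27 ± 0.08 without RApIC replicate 2, in a list of 28 p53 target and apoptosis genes with a median of -0.18, or -0.08 without it.

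The interferon response depended on RApIC replicate 2. The 41 measured type I interferon targets had a median of -0.33 with all arrays and of -0.07 without it. Relative to PBS the list stood at 1.80 and 1.81 on the pIC arrays against 1.96, 0.97 and 1.58 on the RApIC arrays, so only RApIC replicate 2 lay far below. Irf7, the transcription factor that amplifies interferon, was at 12 and 11.95 on the pIC arrays against 12, 11.05 and 11.82 on the RApIC arrays. The difference of -0.35 ± 0.22 became -0.07 ± 0.11 without RApIC replicate 2. Isg15, a ubiquitin-like antiviral protein, was at 12.02 and 11.90 against 12.03, 10.35 and 11.70, and gave -0.60 ± 0.38 and -0.09 ± 0.18. Ifit1, which binds viral RNA, gave -0.54 ± 0.38 and -0.04 ± 0.18. Bst2 (tetherin) was at 13.29 and 13.37 against 13.16, 12.13 and 13.16, -0.51 ± 0.25, or -0.17 ± 0.10 without the array. Trim30a was at 9.90 and 9.80 against 10.28, 9.30 and 10.12, a value of 0.05 ± 0.23 that became 0.35 ± 0.12 without the array. In all 3 of Irf7, Isg15 and Ifit1 the RApIC arrays remained above every PBS array.

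The 13 measured interferon-inducible GTPases had a median of -0.52, or -0.16 without RApIC replicate 2. Gbp11 was at 7.43 and 7.69 against 7.27, 5.67 and 6.61, and Irgm1 at 10.12 on both pIC arrays against 10.07, 9.15 and 9.59. They gave -1.05 ± 0.38 and -0.52 ± 0.20, or -0.63 ± 0.27 and -0.29 ± 0.14 without that array. For MHC class I and the immunoproteasome, the 19 measured genes gave a median of -0.23, or -0.10 without the array, where 11 had lower and 2 higher non-overlapping arrays. H2-T10, a non-classical class I gene, was at 9.60 and 9.64 against 9.34, 8.86 and 9.05, a value of -0.54 ± 0.13, or -0.43 ± 0.12 without RApIC replicate 2. The 9 MHC class II genes gave -0.38 and -0.12.

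**Figure D3:**
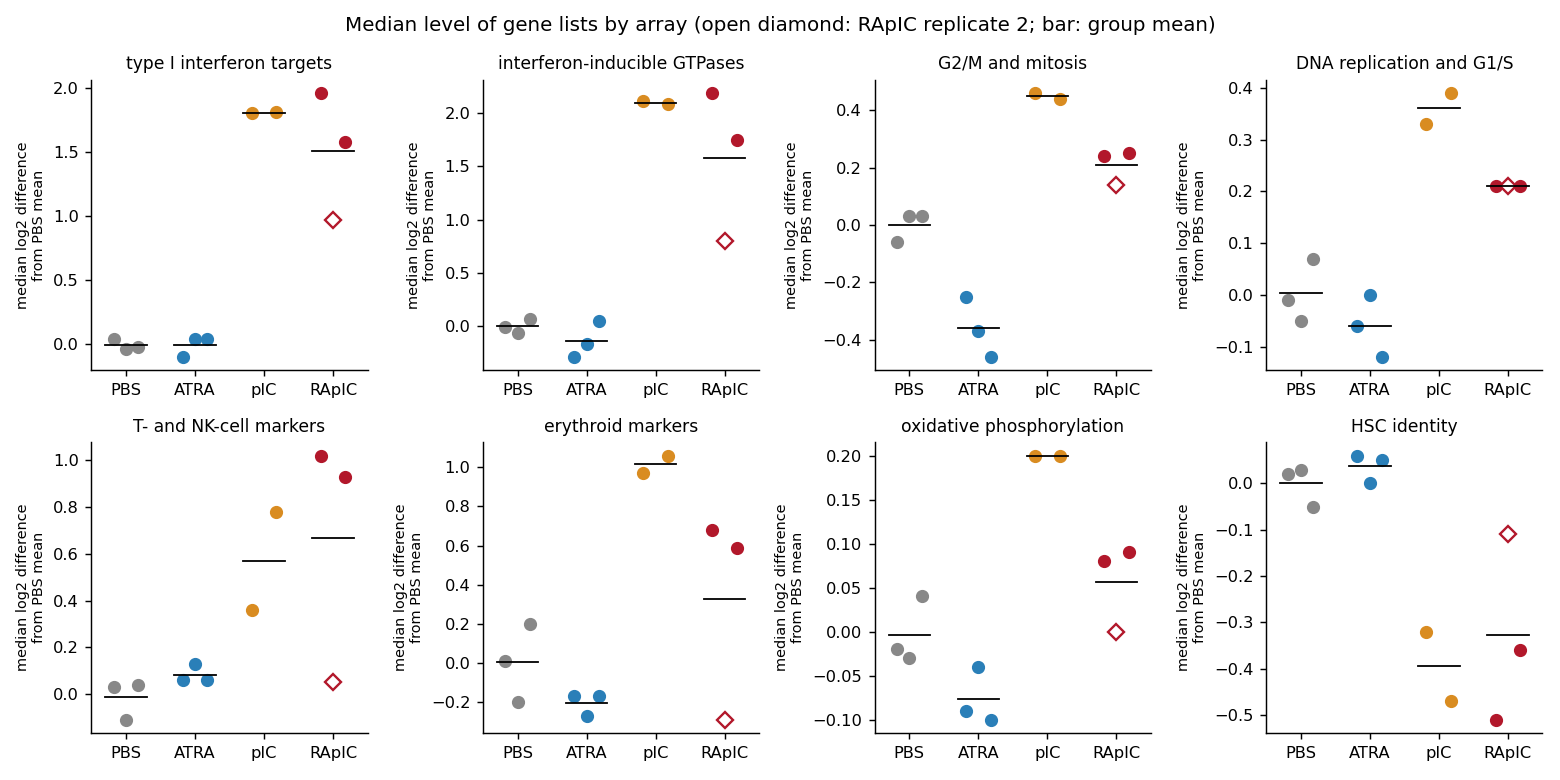
Median log2 level of 8 gene lists relative to the PBS mean (vertical axes, on different scales) on each of the 11 arrays, with a bar at the group mean and RApIC replicate 2 as an open diamond. For type I interferon targets RApIC replicate 2 lies at 0.97 against 1.58 and 1.96 for the other RApIC arrays, whereas for G2/M genes all 3 RApIC arrays (0.14 to 0.25) lie below both pIC arrays (0.44 and 0.46).

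HSC identity genes did not separate RApIC from pIC without RApIC replicate 2. The 46 measured genes had a median of 0.09 with all arrays and of 0.00 without it, where 7 had higher and 8 lower non-overlapping arrays. Relative to PBS, the list stood at -0.32 and -0.47 on the pIC arrays and at -0.51, -0.11 and -0.36 on the RApIC arrays. Hlf, a transcription factor of HSCs, was at 9.02 and 8.73 on the pIC arrays against 8.94, 10.48 and 9.31 on the RApIC arrays, with RApIC replicate 2 near the PBS arrays (10.58 to 10.78). The value of 0.70 ± 0.34 became 0.25 ± 0.15 without that array. Mecom, a regulator of HSC self-renewal, was at 8.76 and 8.68 against 8.58, 9.89 and 9.13 (0.48 ± 0.27, or 0.14 ± 0.15), and its second probe set gave 0.11. Fgd5 was at 7.31 and 7.14 against 7.21, 8.02 and 7.63 (0.40 ± 0.18, or 0.20 ± 0.13).

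Values of several surface markers depended on RApIC replicate 2. Procr (EPCR) gave 0.14 ± 0.10, the stem cell factor receptor Kit 0.21 ± 0.14, and Cd34 0.28 ± 0.14. Leaving out that array, they gave 0.05, 0.04 and 0.10. Slamf1 (CD150) gave -0.20 ± 0.14, or -0.14 ± 0.15. The dormant HSC marker Gprc5c gave 0.07 ± 0.14. Cd48, a marker of progenitors that pIC raised by 2.14 (adjusted p = 0.00309), was at 9.60 and 9.76 on the pIC arrays against 9.46, 8.27 and 9.44 on the RApIC arrays. Its value of -0.62 ± 0.32 became -0.23 ± 0.18 without RApIC replicate 2. Cdh5 (VE-cadherin), expressed by endothelial cells and some HSCs, was at 7.02 and 6.77 against 7.87, 7.07 and 7.38, and gave 0.55 ± 0.21, or 0.73 ± 0.18 without RApIC replicate 2.

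Immediate-early and inflammatory genes gave values in both directions. Egr1, a transcription factor induced within minutes of a stimulus, was at 8.04 and 7.97 on the pIC arrays against 8.22, 8.87 and 8.99 on the RApIC arrays, against 9.62 to 10.01 on the PBS arrays. The difference was 0.69 ± 0.21, or 0.60 ± 0.23 without RApIC replicate 2. Nfkbiz, a co-regulator of NF-kB, was at 7.63 and 7.50 against 8.06, 8.02 and 8.12 (0.50 ± 0.12). Btg1, an anti-proliferative gene, was at 7.88 and 7.84 against 8.32, 8.20 and 8.31 (0.42 ± 0.08, adjusted p = 0.242). Sod2, a mitochondrial superoxide dismutase in the same list as Nfkbiz and Rel, was lower: it was at 9.14 and 9.12 against 8.83, 8.79 and 8.86 (-0.31 ± 0.08, adjusted p = 0.283). Rel, an NF-kB subunit, gave 0.44 ± 0.11, Fos 0.33 ± 0.14, Fosb 0.26 ± 0.10, Zfp36 0.23 ± 0.10 and Nr4a1 0.43 ± 0.37. Junb gave -0.07 ± 0.19. Over 28 measured immediate-early genes the median was 0.05, or 0.08 without RApIC replicate 2. Without it 8 had higher and 4 lower non-overlapping arrays, and 7 were higher and 0 lower at an unadjusted p below 0.05, where all arrays gave 4 higher and 1 lower. The 29 genes of NF-kB targets and inflammation gave -0.12, with 9 positive and 20 negative values, and 0.03 without the array, with 15 positive and 14 negative.

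Markers of lymphocytes differed between the arrays in another pattern. The 25 measured T- and NK-cell markers had a median of 0.06 with all arrays and of 0.43 without RApIC replicate 2. With all arrays none of the 25 had non-overlapping arrays (0 higher, 0 lower) and none had an unadjusted p below 0.05 (0 and 0, limma). Without that array 14 had higher and 0 lower non-overlapping arrays, and 12 were higher and 0 lower at an unadjusted p below 0.05. The list stood at 0.36 and 0.78 above PBS on the pIC arrays, at 1.02, 0.05 and 0.93 on the RApIC arrays, at -0.11 to 0.04 on the PBS arrays and at 0.06 to 0.13 on the ATRA arrays. In such bulk samples more cells of a type and more RNA per cell cannot be told apart. The part of other cells in the sorted samples in these values was not tested.

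Il2rb, a receptor chain for interleukins 2 and 15, was at 7.69 and 9.17 on the pIC arrays against 9.77, 6.55 and 9.45 on the RApIC arrays. Its value of 0.16 ± 0.77 became 1.18 ± 0.37 without RApIC replicate 2. Cd3d, a T-cell receptor subunit, was at 7.18 and 8.11 against 8.52, 6.18 and 8.49, and gave 0.08 ± 0.57 and 0.86 ± 0.25. Cd5 gave 0.34 ± 0.32 and 0.72 ± 0.22. Gzmb (granzyme B) was at 8.35 and 8.92 against 9.77, 4.78 and 8.56, so RApIC replicate 2 lay at the PBS level of 4.49 to 5.03. Its value of -0.93 ± 1.05 became 0.53 ± 0.36. Nkg7 was at 10.18 and 10.32 against 10.27, 9.78 and 10.25 (-0.15 ± 0.20, or 0.01 ± 0.19). Gimap4, Klrk1 and Grap2, all expressed in lymphocytes, were among the genes with the lowest p without RApIC replicate 2, with 1.35 ± 0.20, 0.64 ± 0.10 and 0.97 ± 0.16 (adjusted p = 0.239, 0.239 and 0.247). With all arrays they gave 0.60 ± 0.54, 0.40 ± 0.18 and 0.38 ± 0.43. Pld4, Phxr4, Hspa1l, Rfxap and Minpp1 were named by the same rule, with 0.91, 0.81, -0.73, -0.46 and -0.51, and second probe sets of Hspa1l and Minpp1 gave -0.04 and -0.09 with all arrays.

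The 20 measured markers of multipotent and lymphoid-primed progenitors had a median of 0.15, or 0.16 without RApIC replicate 2. With all arrays 6 had higher and 1 lower non-overlapping arrays, and 4 were higher and 0 lower at an unadjusted p below 0.05. Leaving that array out, 11 had higher and 1 lower non-overlapping arrays, and 6 were higher and 0 lower at an unadjusted p below 0.05. Satb1, a chromatin organiser of early lymphoid cells, was at 6.70 and 7.27 on the pIC arrays against 8.05, 7.33 and 8.15 on the RApIC arrays. The arrays did not overlap, and it gave 0.85 ± 0.25, or 1.11 ± 0.20 without RApIC replicate 2. Il7r, the interleukin 7 receptor, was at 6.03 and 7.22 against 9.32, 5.70 and 8.21, and gave 1.12 ± 0.85 or 2.14 ± 0.55. Cd53 was at 8.09 and 8.25 against 9.27, 7.08 and 8.68. Its value was 0.17 ± 0.47, or 0.80 ± 0.20 without RApIC replicate 2. T cells also express these genes, and in all 3 of them RApIC replicate 2 was the lowest RApIC array, as in the T- and NK-cell markers. Other members of the list went the other way. Flt3 was at 7.23 and 6.51 against 7.68, 8.54 and 7.33 (0.98 ± 0.32, or 0.63 ± 0.24 without RApIC replicate 2). There RApIC replicate 2 was the highest RApIC array, as it was for Cd34 (10.28, 10.86 and 10.37). The part of T cells in these values was not tested.

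Erythroid markers were lower in RApIC arrays. The 16 measured ones had a median of -0.69, or -0.36 without RApIC replicate 2, and 12 and 13 of them had non-overlapping lower arrays, with 0 higher. The list stood at 0.97 and 1.06 above PBS on the pIC arrays and at 0.68, -0.29 and 0.59 on the RApIC arrays. Klf1, a master regulator of erythroid genes, was at 9.15 and 9.42 on the pIC arrays against 8.91, 7.34 and 8.24 on the RApIC arrays. It gave -1.13 ± 0.33, or -0.72 ± 0.19 without RApIC replicate 2. Gata1 was at 8.71 and 8.59 against 8.02, 7.92 and 8.57 (-0.48 ± 0.17, or -0.36 ± 0.17 without RApIC replicate 2). Ermap gave -1.56 ± 0.64, or -0.68 ± 0.24, and the erythropoietin receptor Epor -0.65 ± 0.24, or -0.38 ± 0.17. Hemoglobin genes were not analysed here.

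The remaining markers gave medians between -0.04 and 0.17 without RApIC replicate 2. These were B cells (0.10, 16 genes), neutrophils and their precursors (0.17, 18 genes), monocytes, macrophages and dendritic cells (0.08, 23 genes), megakaryocytes and platelets (0.08, 19 genes), mast cells, basophils and eosinophils (-0.04, 16 genes), endothelium (0.01, 18 genes) and marrow stroma (0.15, 17 genes). Mpo was at 6.21 and 6.42 on the pIC arrays against 6.81, 6.88 and 6.61 on the RApIC arrays, and Elane at 6.20 and 5.78 against 6.14, 6.69 and 6.32. The SEs of both genes in RApIC versus pIC, 0.69 and 0.84, carry the spread of ATRA replicate 1, at 9.47 and 10.08 where the other ATRA arrays were at 6.46 to 6.49. Cxcr2, a neutrophil chemokine receptor, gave 0.38 ± 0.12. Among megakaryocyte genes Clec1b, a platelet receptor, was at 6.57 and 6.39 against 7.42, 7.54 and 7.03 (0.85 ± 0.17, adjusted p = 0.242), whereas the platelet glycoprotein Gp5 was at 7.98 and 7.87 against 7.53, 7.27 and 7.71 (-0.42 ± 0.12, or -0.31 ± 0.11 without RApIC replicate 2). Vwf gave 0.11 ± 0.10 and Itga2b -0.06 ± 0.17, the latter 0.16 ± 0.09 without that array. With all arrays the megakaryocyte list had a median of 0.03, and 2 members had higher and 4 lower non-overlapping arrays. Without RApIC replicate 2 these counts were 7 and 4. Stroma markers gave 8 and 0 there, against 2 and 0 with all arrays, and monocyte, macrophage and dendritic-cell markers 8 and 1, against 3 and 0. Neutrophil markers gave 5 and 0, B-cell markers 2 and 0, mast-cell, basophil and eosinophil markers 4 and 2, and endothelial markers 3 and 3. Of all genes, 14.3% were higher and 24.1% lower in that fit.

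**Figure D4:**
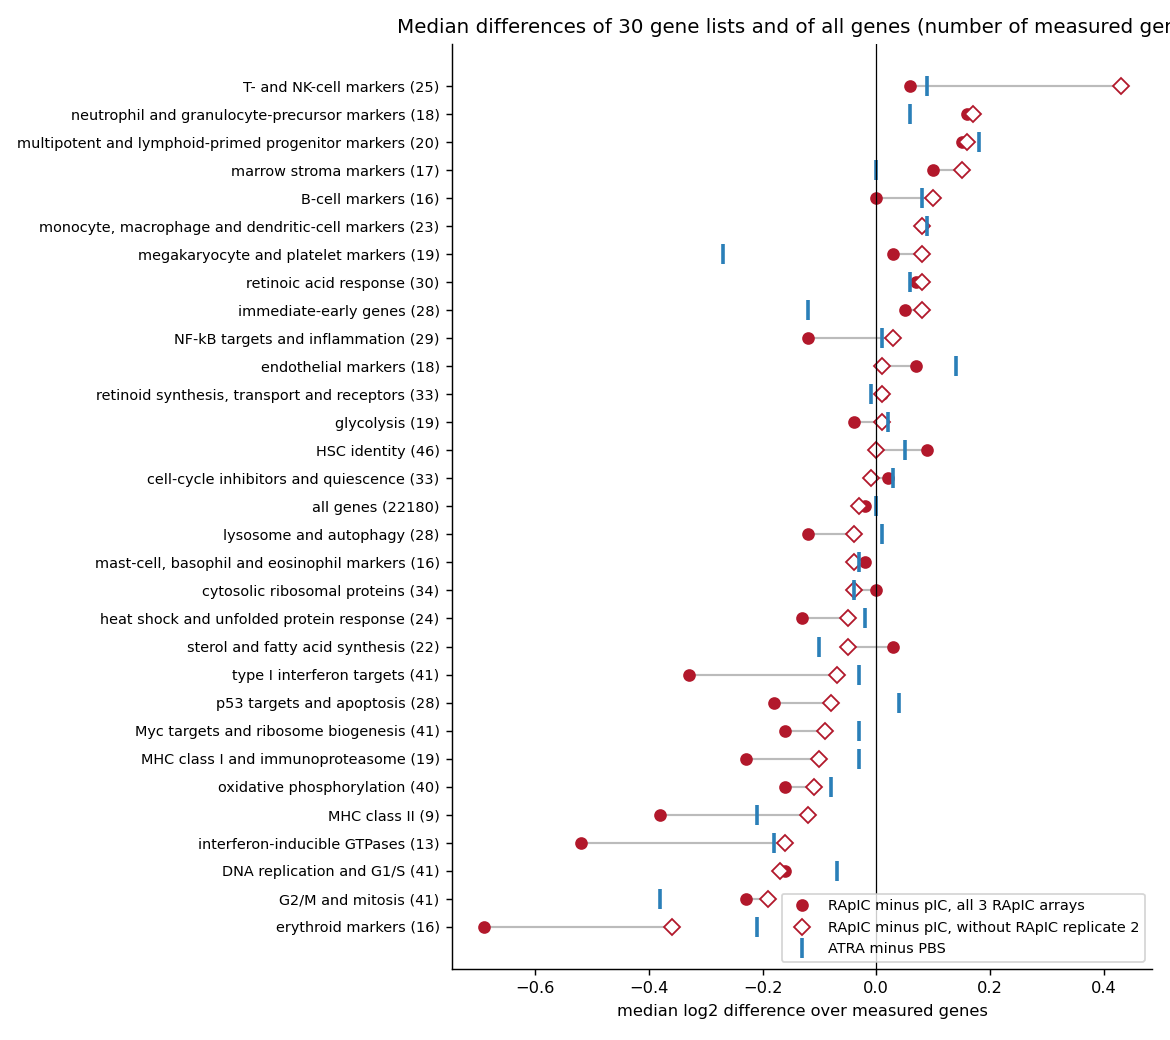
Median log2 difference (horizontal axis) of RApIC minus pIC over the measured genes of 30 lists and over all genes, with all 3 RApIC arrays (filled circles) and without RApIC replicate 2 (open diamonds), and of ATRA minus PBS (blue ticks). Type I interferon targets (-0.33 and -0.07), erythroid markers (-0.69 and -0.36) and T- and NK-cell markers (0.06 and 0.43) move when the array is left out, while G2/M (-0.23 and -0.19) and G1/S (-0.16 and -0.17) hold their place.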

How the data were processed

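RNA of sorted HSCs from 11 samples was labelled with biotin for Affymetrix arrays, per the labels' protocols. The authors deposited log2 intensities of 41345 probe sets, and oligo 1.36.1, RMA and limma 3.28.20 are named in the submitters' processing notes, without order or role. The sources used here name no build and no array batch. Of the probe sets, 23521 had 1 gene symbol, 1814 had several and 16010 were not listed in the probe table. Each of 22180 genes was represented by its single-symbol probe set of highest mean value, and 1082 genes had more than 1. RMA's quantile scaling gives all arrays nearly the same distribution, so a shift shared by most genes cannot be seen.

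limma 3.58.1 in R 4.3.3 fitted 4 group means to all 11 arrays, and again without RApIC replicate 2, with two-sided tests and Benjamini-Hochberg adjustment over all genes at 0.05. The code of the fit was checked on simulated data with independent noise and no array set apart. That check cannot show how the fit behaves with an array such as RApIC replicate 2. The comparisons were RApIC with pIC, ATRA with PBS and pIC with PBS, and the interaction of the first pair. Arrays do not overlap where every value of a group lies above every value of the other. A list's level on an array is the median over its members after subtraction of the PBS mean. The groups, the 30 gene lists (10 of cell-type markers) and the tests were chosen with earlier results of these data known.

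Named genes were the 10 higher and 10 lower genes with non-overlapping arrays in order of unadjusted p, in both fits, up to 4 members per list, and a fixed set of 44 genes, of which 41 were measured. Some of the former kinds are not printed. Evl, the host of Mir342, Gzma, Ifnb1 and the genes leading ATRA versus PBS were chosen after their values were seen. As alternatives, array weights, removal of the dimmest 40% of genes, a replicate block, cyclic loess, the mean of probe sets, each probe set alone, only the groups compared, a trend and robust prior, and each array left out were run. Promoters and figures used Python 3.11.15, numpy 2.4.6, pandas 2.3.3 and matplotlib 3.10.9.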

Additional observations from a re-analysis of the deposited data

Results flagged for a closer look

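Of the 17824 probe sets with several symbols or none, which the comparisons above leave out, 14 passed an adjusted p of 0.05 in RApIC versus pIC with all arrays, all of them higher (lowest adjusted p 0.0337, limma, adjusted over these probe sets). They held only 2 distinct sets of values. In 13 of them the values were identical, with 4.04 and 4.01 on the pIC arrays, 4.99, 5.05 and 4.99 on the RApIC arrays, and a difference of 0.99 ± 0.13, so they count as 1 measurement. Each copy nevertheless entered the adjustment as its own test, which can lower the adjusted p of all 14. An adjustment over distinct values was not run, so the 14 are not counted as a called result. The other gave 7.99 and 8.50 against 9.72, 9.86 and 9.71, a difference of 1.52 ± 0.19. None is named in the probe table, and without RApIC replicate 2 none passed (0 of 17824, with 1325 at an unadjusted p below 0.05 and a lowest adjusted p of 0.102).

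The other results are those, among the genes named in the text and the list levels, in which all RApIC arrays moved one way from pIC and all ATRA arrays the opposite way from PBS. The level of megakaryocyte and platelet markers, taken as the mean over arrays of each array's median, was 0.19 higher in RApIC than in pIC arrays and stood at -0.24 in ATRA versus PBS, a difference that was not tested. The median of the members' own differences was smaller, at 0.03, and -0.27 in ATRA versus PBS. Mid1 gave 0.66 and -1.32, Cxcr2 0.38 and -0.24, Tbc1d10b -0.57 and 0.33, Zbtb43 -0.52 and 0.14, Mterf1b -0.26 and 0.54, and Fos 0.33 and -0.22. In none of the 6 genes did the interaction pass limma's test, with adjusted p-values of 0.395, 0.742, 0.395, 0.702, 0.395 and 0.775.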

How the results depend on the processing

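The count of 0 genes called in RApIC versus pIC held under cyclic loess, the mean of probe sets, each probe set alone, the dimmest genes left out, only the groups compared and the trend and robust prior. It became 112 (61 higher, 51 lower) with array weights, which gave RApIC replicate 2 a weight of 0.37 and RApIC replicate 3 one of 4.19. Dhrs3 (0.88, adjusted p = 0.0361), P2rx7 (1.71, 0.0394), Klf12 (1.19, 0.0314), Mir342 (1.29, 0.0319) and Tfrc (-0.77, 0.0315) were among the 112. Without RApIC replicate 2, array weights called 0. Leaving out 1 array gave 0 to 1 genes in RApIC versus pIC, 0 to 1 without RApIC replicate 2 as well, and 0 to 1 in the interaction. The gene was Ifnb1 without pIC replicate 1 (-3.18, adjusted p = 0.00126), since pIC replicate 2 was at 8.18 and pIC replicate 1 at 5.23, and Gzma (2.33, 0.0227) without RApIC replicates 2 and 3. Each then rests on a lone array assumed to vary like the others. ATRA versus PBS called 1 gene in the main model, 28 with array weights, 16 with the dimmest genes left out, 22 with the trend and robust prior, and 1 to 26 with 1 array left out, where the 26 arose without RApIC replicate 2, an alternative added after seeing the data. The cause of these differences was not tested.

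Same-numbered pIC and RApIC arrays deviated from their group means with correlations of -0.07 and -0.11. With 2 pIC arrays the deviations of one mirror those of the other, so these correlations cannot decide whether the numbers pair the samples. A replicate block called 0 genes in RApIC versus pIC, with or without RApIC replicate 2, 0 in the interaction and 4 in ATRA versus PBS.

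Of 121 named genes checked in this way, 103 kept their sign whichever pIC or RApIC array was left out. The others spanned -0.21 to 0.43 (Itgb7), -0.38 to 0.86 (Cd3d), -0.58 to 1.18 (Il2rb), -1.97 to 0.53 (Gzmb), -0.24 to 0.01 (Nkg7), -0.29 to 0.80 (Cd53), -0.12 to 0.08 (Mki67), -0.04 to 0.02 (Myc), -0.14 to 0.35 (Trim30a), -0.19 to 1.40 (Gzma), -0.12 to 0.13 (Vldlr), -0.07 to 0.27 (Stx1a), -0.14 to 0.01 (Rara), -0.11 to 0.02 (Rarg), -0.04 to 0.12 (Stra6), -0.10 to 0.03 (Mycn), -0.18 to 0.10 (Junb) and -0.20 to 0.16 (Itga2b). The median of all genes was -0.019 as deposited and -0.016 after cyclic loess. With 2 pIC arrays and 3 RApIC arrays, the median SE over genes was 0.120.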
